A study of Mus musculus with 10 samples.

Results

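The NRF2 oxidative stress response was examined through 10 genes chosen by name: the transcription factor gene Nfe2l2, its repressor gene Keap1, and the antioxidant genes Hmox1, Srxn1, Txnrd1, Gsr, Slc7a11, Gclc, Gclm and Nqo1. They are 10 of the 38922 genes in the deposited tables, and all 10 passed the filter on low counts. Their mouse Ensembl identifiers were matched to symbols with a mouse GENCODE annotation. In livers collected 6 h after injection of CD95-Ab, transcripts of 6 genes rose, those of 3 fell and 1 did not pass the test. Of the 13719 genes tested in all, 25.4% rose and 22% fell.

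Livers came from 10 wild-type males of the inbred mouse strain C57BL/6N, aged 6 weeks and fed standard chow. In the CD95-Ab group, 5 mice received an intraperitoneal injection of 0.5 µg/g of an antibody that activates CD95 (Fas), a death receptor to which hepatocytes are very sensitive. In the saline group, 5 mice received an equal volume of saline, and both groups were sacrificed at 6 h. The comparison addresses how the liver transcriptome differs in this model of acute liver failure, in which 1 dose and 1 time were sampled and each library came from whole liver of 1 mouse.

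Depth ranged from 25965699 to 62097636 counts per mouse. Values below are CPM (counts divided by the TMM-scaled total of the mouse) unless stated otherwise, and n was 5 mice per group throughout. The tissue label was checked against 8 hepatocyte markers, which summed to between 103330 and 125870 CPM in saline mice and between 49046 and 86524 CPM in CD95-Ab mice. Most of this sum was albumin (Alb), with means of 84727 and 41434 CPM, and of the 8 markers 2 fell and 6 were not called. Summed markers of neutrophils (4.08 to 10.6 against 109 to 438 CPM), monocytes (5.38 to 15.4 against 56.5 to 110.29 CPM), endothelial cells (48.5 to 104 against 169 to 344 CPM) and stellate cells (140.14 to 202 against 347 to 580.43 CPM) were higher in every CD95-Ab mouse than in every saline mouse. The same held for cholangiocyte (18.3 to 33.8 against 48.3 to 186 CPM), erythroid (135 to 323 against 1064 to 33995 CPM) and lymphocyte markers (1.21 to 5.48 against 7.77 to 14.3 CPM), whereas Kupffer cell and macrophage markers overlapped (173 to 576 against 349 to 747 CPM). Most of the cholangiocyte sum was Spp1 and Sox9, with means of 24.0 and 1.91 CPM in saline and 65.9 and 58.4 CPM in CD95-Ab mice. Krt19 and Epcam also rose, at lower levels, and Krt7 was not called. Dcn and Rgs5 made most of the stellate sum, with means of 87.0 and 33.5 CPM in saline and 251 and 100 in CD95-Ab mice. Of the other stellate markers, Reln and Des rose, and Lrat and Col1a1 were not called. The small nuclear RNA gene Rn7sk was at 0.204 to 0.808 CPM in saline and 355 to 1301 CPM in CD95-Ab livers, and the mitochondrial share of counts was 7.56% to 21.9% against 8.45% to 22.1%. The part of cell composition and RNA quality in the changes described here was not tested, and in bulk tissue fewer cells of a type and less RNA per cell cannot be told apart.

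NRF2, the protein made from Nfe2l2, is held in the cytoplasm by KEAP1, which presents it to the CUL3 ubiquitin ligase for degradation. Oxidants and electrophiles modify cysteines of KEAP1, NRF2 then accumulates in the nucleus, pairs with a small MAF protein and binds antioxidant response elements. Its targets include enzymes that make glutathione, reduce thioredoxin and peroxiredoxins, break down heme and detoxify quinones. Much of this regulation acts on protein stability, which transcript levels do not measure.

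The core of the antioxidant response element was searched as TGACNNNGC on both strands, from 250 bases before to 50 bases after each start, together with TGANTCA, the letters of an extended AP-1 site. RefSeq promoters (GRCm38.p6) were at hand for 7 of the 10 genes, and Gclc, Hmox1 and Gsr had no entry. The core was found for Nfe2l2, Srxn1, Gclm and Txnrd1, that is 4 of 7 genes, against 14% of 27025 genes with an entry. TGANTCA was found for Srxn1, 1 of 7 genes, against 8.97% of genes. A match describes letters and does not show binding. The matched windows of Nfe2l2, Srxn1 and Txnrd1, which rose, are shown first. The match of Gclm, which fell, follows within its promoter. Each is written 5′ to 3′ along the strand of its gene, with the match in capitals.

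Nfe2l2, core at 240 bases before the start, chr2:75704885-75704913, minus strand: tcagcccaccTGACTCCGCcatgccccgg
Srxn1, TGANTCA at 102 bases before the start, chr2:152105412-152105438, plus strand: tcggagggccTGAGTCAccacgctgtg
Srxn1, TGANTCA at 45 bases before the start, chr2:152105469-152105495, plus strand: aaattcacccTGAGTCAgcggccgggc
Srxn1, core on the other strand at 29 bases after the start, chr2:152105542-152105570, plus strand: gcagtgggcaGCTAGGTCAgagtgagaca
Txnrd1, core on the other strand at 92 bases before its start number 2 of 3, chr10:82859104-82859132, plus strand: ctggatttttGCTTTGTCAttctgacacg

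The proximal promoter of Gclm is shown whole because Gclm also held the core (capitals, on the other strand, 134 bases before the start) and its transcripts fell. It spans chr3:122245307-122245556 on the plus strand and is 78.4% G and C.

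Gclm: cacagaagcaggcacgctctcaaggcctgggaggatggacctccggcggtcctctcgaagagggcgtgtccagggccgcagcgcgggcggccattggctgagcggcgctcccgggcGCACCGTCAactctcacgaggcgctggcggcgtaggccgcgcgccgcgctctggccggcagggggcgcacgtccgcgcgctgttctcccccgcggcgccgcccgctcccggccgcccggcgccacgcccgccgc

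Among the 4 genes with the core, Nfe2l2, Srxn1 and Txnrd1 rose and Gclm fell. Slc7a11, which rose, and Keap1 and Nqo1, which fell, held neither motif in this window.

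The 10 genes split into a group that rose with no overlap between mice and a group that did not rise. Hmox1, Slc7a11 and Srxn1 rose past a log2 fold change of 2, the threshold for upregulation, which 6.59% of the 13719 genes tested passed in that direction. Nfe2l2, Txnrd1 and Gsr also rose, so 6 of 10 genes rose at a false discovery rate (FDR) of 0.05 or less, against a background of 25.4%. Keap1, Gclm and Nqo1 fell, 3 of 10 against 22% of all genes, and Gclc was not called. In all 9 of 10 were called in either direction, against 47.3%. Every CD95-Ab mouse was above every saline mouse for the same 6 genes that rose (18.6% of all genes), and for 0 of the 10 was every CD95-Ab mouse below every saline mouse (14.7% of all genes). The median log2 fold change was 0.87 over the 10 genes and 0.01 over all genes tested. Calls are from edgeR's quasi-likelihood test with Benjamini-Hochberg adjustment over all genes tested.

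**Figure D1:**
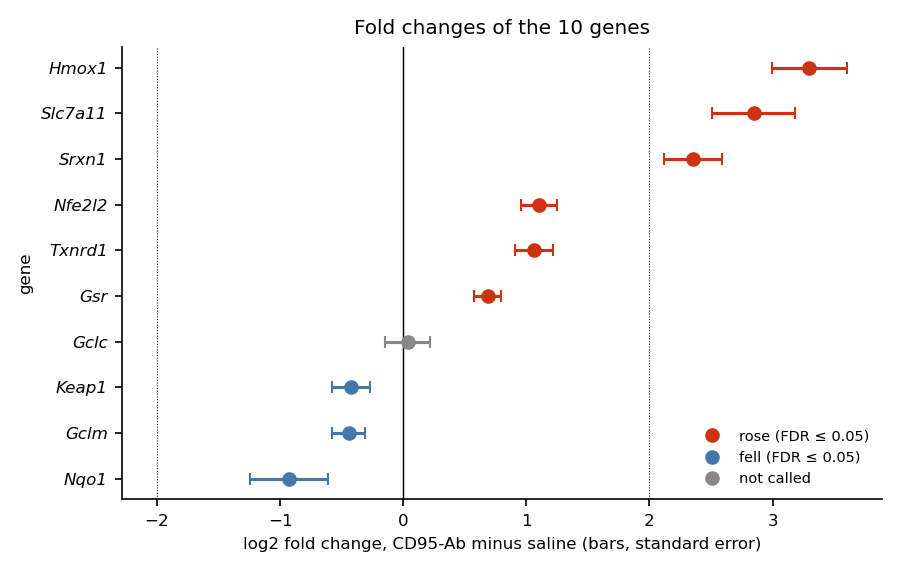
Log2 fold change (CD95-Ab minus saline, x axis) of each of the 10 genes (y axis), with bars for the standard error and dotted lines at a log2 fold change of 2 and of -2. Hmox1, Slc7a11 and Srxn1 lie beyond 2, and Keap1, Gclm and Nqo1 lie between 0 and -1.

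Nfe2l2 (chromosome 2, 75675513 to 75704641, minus strand, GRCm38 as are the positions that follow) encodes NRF2 itself. It was at 53.6, 60.3, 44.5, 49.2 and 58.7 CPM in saline mice 1 to 5 and at 95.3, 104, 106, 149 and 119 CPM in CD95-Ab mice 1 to 5. The groups did not overlap, and CD95-Ab mouse 4 was the highest. Nfe2l2 was 2.15-fold higher, a log2 fold change of 1.11 ± 0.15 (SE, n = 5, FDR = 8.63e-05).

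Keap1 (chromosome 9, 21229730 to 21239361, minus strand) encodes the repressor of NRF2. Its level was 39.8, 42.0, 39.6, 32.3 and 36.8 CPM in saline mice and 35.7, 34.8, 24.4, 24.1 and 22.9 CPM in CD95-Ab mice. CD95-Ab mice 1 and 2 lay within the saline range and mice 3, 4 and 5 lay below it. Keap1 fell by 0.42 ± 0.15 on the log2 scale (SE, n = 5, FDR = 0.0358). This call was lost when any of 7 mice was left out: with saline mouse 1, 2, 3 or 5 left out the FDR was 0.0679, 0.0748, 0.0643 and 0.0536, and without CD95-Ab mouse 3, 4 or 5 it was 0.0885, 0.0723 and 0.0818. The exons of Keap1 overlap those of Gm16754 on the opposite strand, which had 23 to 138 counts per mouse, and whether the counting used strand is not given in the sources used here.

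Within each mouse, the count of Nfe2l2 relative to that of Keap1 was 1.40 ± 0.18 in saline and 4.27 ± 1.47 in CD95-Ab livers (mean ± SD, n = 5). The log2 ratio was 1.54 higher after CD95-Ab, with no overlap between groups (exact permutation test, two-sided, p = 0.00794, the smallest that 5 mice against 5 allow, and 0.0106 after Benjamini-Hochberg adjustment over 4 ratios).

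Hmox1 (chromosome 8, 75093621 to 75100589, plus strand) encodes heme oxygenase 1, which cleaves heme into biliverdin, iron and carbon monoxide. It was at 17.996, 28.8, 15.2, 26.6 and 47.7 CPM in saline mice and at 249, 228, 328, 338 and 200.05 CPM in CD95-Ab mice. The lowest CD95-Ab mouse was far above the highest saline mouse, and saline mouse 5 was the highest of its group. With a 9.85-fold difference, Hmox1 had the largest change of the 10 genes, a log2 fold change of 3.30 ± 0.31 (SE, n = 5, FDR = 7.3e-06). The summed erythroid markers, largely globin transcripts, were 1064, 7054, 33995, 20663 and 5354 CPM in CD95-Ab mice 1 to 5, and Hmox1 was highest in mice 3 and 4, in which they were highest. Monocyte markers also rose, and the part of either in the Hmox1 level was not tested.

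Srxn1 (chromosome 2, 152105516 to 152111376, plus strand) encodes sulfiredoxin 1, which repairs peroxiredoxins that peroxide has overoxidized. Saline mice had 35.8, 31.9, 28.9, 27.5 and 28.9 CPM, and CD95-Ab mice had 190.5, 249, 107, 122 and 116 CPM. CD95-Ab mice 1 and 2 stood above the other 3, and all 5 were above every saline mouse. Srxn1, the gene with 3 matched windows above, was 5.12-fold higher, a log2 fold change of 2.36 ± 0.24 (SE, n = 5, FDR = 1.21e-05).

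Slc7a11 (chromosome 3, 49892526 to 50443614, minus strand) encodes xCT, the cystine importer that supplies cysteine for glutathione. It was scarce in saline livers, at 0.800, 0.830, 0.648, 1.46 and 1.22 CPM, or 23 to 66 counts. In CD95-Ab livers it was at 3.69, 4.84, 7.48, 7.71 and 11.8 CPM. The groups did not overlap, and CD95-Ab mice 1 and 2, which had the highest Srxn1, had the lowest Slc7a11 of their group. Slc7a11 was 7.19-fold higher by counts, a log2 fold change of 2.85 ± 0.34 (SE, n = 5, FDR = 4.3e-05).

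Txnrd1 (chromosome 10, 82833951 to 82897712, plus strand) encodes cytosolic thioredoxin reductase, which uses NADPH to reduce thioredoxin. It was at 106, 104, 95.3, 80.3 and 72.3 CPM in saline mice and at 212, 232, 192, 167 and 154 CPM in CD95-Ab mice. The groups did not overlap. Txnrd1 was 2.09-fold higher, a log2 fold change of 1.06 ± 0.16 (SE, n = 5, FDR = 0.000189).

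Gsr (chromosome 8, 33652523 to 33698163, plus strand) encodes glutathione reductase, which uses NADPH to recycle oxidized glutathione. Its saline values were nearly the same in every mouse, at 52.2, 52.5, 52.8, 54.8 and 50.5 CPM. CD95-Ab mice had 83.8, 103, 80.9, 81.1 and 73.7 CPM, all above the saline range and with mouse 2 the highest. Gsr was 1.61-fold higher, a log2 fold change of 0.69 ± 0.11 (SE, n = 5, FDR = 0.000381).

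Of these reductases, Txnrd1 rose more than Gsr within mice. The ratio of their counts was 1.74 ± 0.28 in saline and 2.26 ± 0.19 in CD95-Ab livers (mean ± SD, n = 5), with no overlap. The log2 ratio differed by 0.39 (exact permutation test, two-sided, p = 0.00794, adjusted p = 0.0106).

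Gclc and Gclm encode the catalytic and modifier subunits of glutamate-cysteine ligase, the rate-limiting enzyme of glutathione synthesis, and they did not move together. Gclc (chromosome 9, 77754535 to 77794485, plus strand) was at 294, 299.9, 223, 211 and 226 CPM in saline mice and at 211, 338, 186, 301 and 251 CPM in CD95-Ab mice. The ranges overlapped almost entirely. Its log2 fold change was 0.04 ± 0.18 (SE, n = 5, FDR = 0.887), and the sign of this small value changed with the scaling.

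Gclm (chromosome 3, 122245557 to 122270732, plus strand) was at 170.05, 185, 158, 157 and 164 CPM in saline mice and at 116, 116, 98.1, 125 and 158 CPM in CD95-Ab mice. CD95-Ab mice 1 to 4 were below every saline mouse, and mouse 5 was within the saline range. Gclm fell by 0.44 ± 0.14 on the log2 scale (SE, n = 5, FDR = 0.0176). Its exons overlap Gm17494 on the opposite strand (13 to 56 counts per mouse) and the pseudogene Gm6061 on the same strand (0 to 19 counts), both small beside the 2463 to 8830 counts of Gclm.

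The ratio of Gclm to Gclc counts was 0.674 ± 0.072 in saline and 0.493 ± 0.114 in CD95-Ab livers (mean ± SD, n = 5), and the ranges overlapped. The log2 ratio was -0.58 ± 0.16 in saline and -1.05 ± 0.35 after CD95-Ab, a difference of -0.48 (exact permutation test, two-sided, p = 0.0238, adjusted p = 0.0238). Slc7a11 relative to Gclc was 2.65 higher on the log2 scale, with no overlap (exact permutation test, two-sided, p = 0.00794, adjusted p = 0.0106). With 1 in place of 0.1 added to each CPM this difference was smaller, at 1.94, with an adjusted p of 0.0106 by the same test.

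Nqo1 (chromosome 8, 107388225 to 107403206, minus strand) encodes NAD(P)H quinone dehydrogenase 1, a widely used indicator gene of NRF2 activity. It was at 7.41, 4.86, 3.78, 4.66 and 7.43 CPM in saline mice and at 5.23, 2.42, 2.03, 3.55 and 1.64 CPM in CD95-Ab mice. CD95-Ab mouse 1 lay within the saline range and the other 4 lay below it. Nqo1 fell by 0.93 ± 0.32 on the log2 scale (SE, n = 5, FDR = 0.0307). The call was lost without saline mouse 1 or 5 (FDR = 0.0726 and 0.0758) and without CD95-Ab mouse 2, 3 or 5 (FDR = 0.0727, 0.0769 and 0.0664). With either saline mouse 1 or 5, or CD95-Ab mouse 3 or 5, left out, the number of the 10 genes that fell dropped from 3 to 1.

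**Figure D2:**
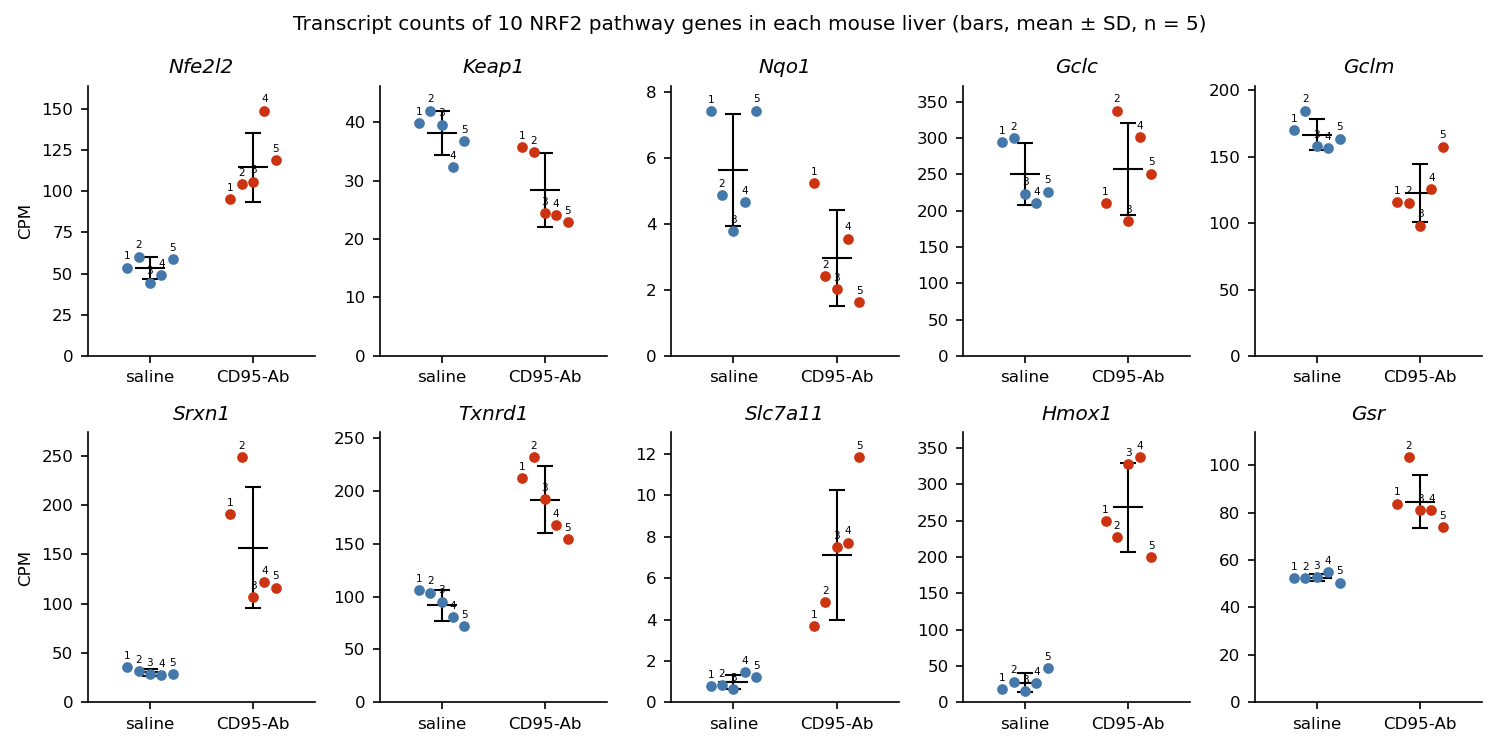
CPM (y axis, linear from 0) of the 10 genes in each saline (blue) and CD95-Ab (red) mouse, numbered 1 to 5, with the mean ± SD. The groups are fully separated for Nfe2l2, Srxn1, Txnrd1, Slc7a11, Hmox1 and Gsr, and overlap for Keap1, Nqo1, Gclc and Gclm.

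**Figure D3:**
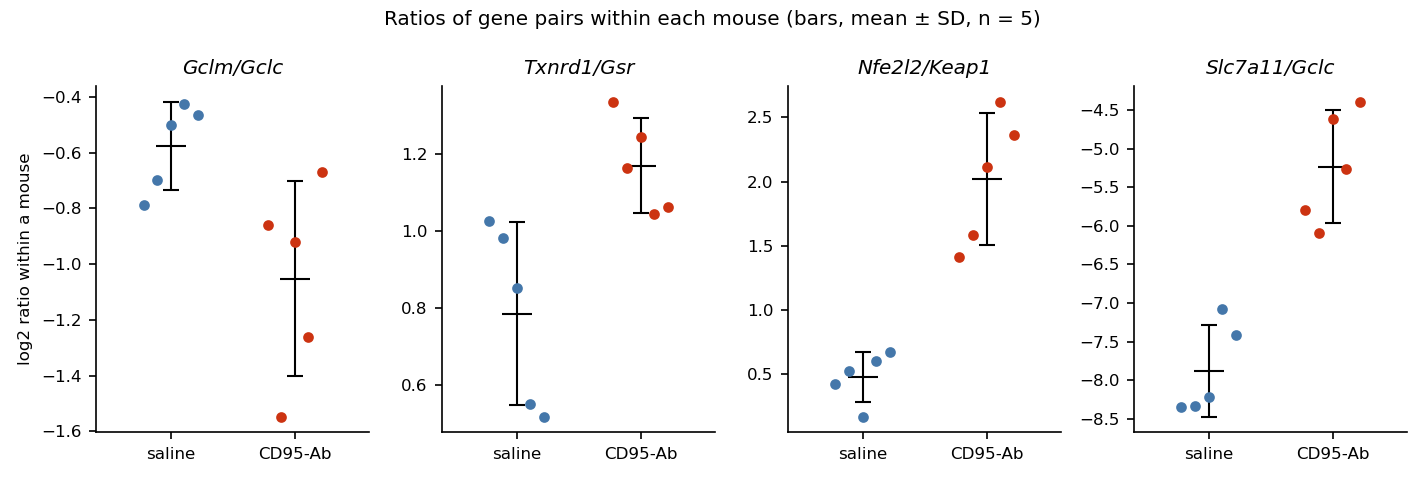
Log2 ratio of the counts of a gene pair within each mouse (y axis) by group, with the mean ± SD. Gclm/Gclc is lower by 0.48 after CD95-Ab with overlapping ranges, and the other 3 ratios are higher with no overlap.

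The size of the Slc7a11 change depended on the unit. By the authors' FPKM, which divides by transcript length, saline mice had 0.28, 0.30, 0.21, 0.47 and 0.34 and CD95-Ab mice had 0.63, 0.72, 0.90, 1.06 and 1.55. All CD95-Ab mice were again higher, but the ratio of group means was 3.04 by FPKM against 7.17 by CPM. The mean transcript length that the deposited counts and FPKM imply was 3114 to 3204 bases in saline mice and 6175 to 7677 bases in CD95-Ab mice. The medians, 3158 and 6715 bases, differ by a ratio of 2.13, and this quantity was singled out after its values were seen. Of the 11138 genes whose count reached 20 in all mice, 2, Slc7a11 included, had a ratio this large, and the range from the 5th to the 95th percentile was 0.939 to 1.06. For the other 9 genes the ratio lay between 0.987 and 1.09, the highest being Gclm.

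GENCODE lists transcripts of Slc7a11 of different lengths: coding transcripts of 9223 and 2419 bases, and retained-intron transcripts of 3162 and 2677 bases. The saline value was near the shorter ones and the CD95-Ab value lay between them and the longest. Which transcripts gave the reads was not tested, since gene-level values do not show it.

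**Figure D4:**
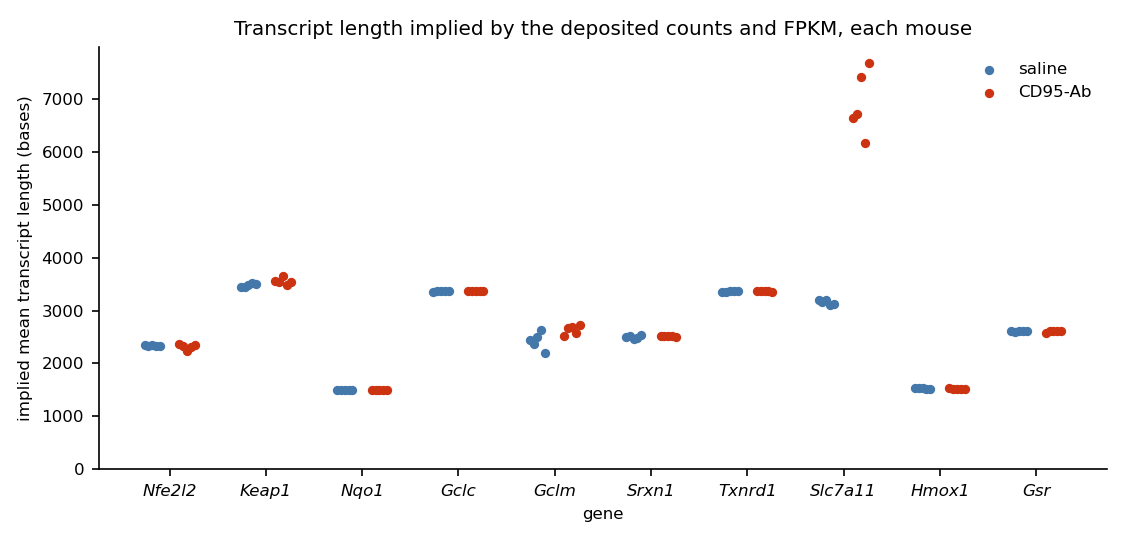
Mean transcript length in bases (y axis) implied by the deposited counts and FPKM for the 10 genes (x axis) in each saline (blue) and CD95-Ab (red) mouse. Slc7a11 moves from 3114 to 3204 bases in saline to 6175 to 7677 bases in CD95-Ab mice, and the medians of the other 9 genes stay within a ratio of 0.987 to 1.09.

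Levels between genes were compared by median FPKM. In saline livers Gclc (68.8) and Gclm (65.7) were the most abundant and overlapped each other. Below them came Txnrd1 (29.4), Nfe2l2 (21.9), Gsr (20.9), Hmox1 (17.6), Srxn1 (12.1) and Keap1 (11.8), a run in which each gene overlapped the next. Nqo1 (3.71) and Slc7a11 (0.30) were lower, each with no overlap with the gene above it.

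After CD95-Ab, Hmox1 moved from rank 6 to rank 1 with a median FPKM of 185 and did not overlap Gclc (74.9), the next. Txnrd1 (50.9), Srxn1 (46.6), Nfe2l2 (45.7), Gclm (43.3) and Gsr (28.4) followed, each overlapping its neighbour. Keap1 (6.51), Nqo1 (1.62) and Slc7a11 (0.90) remained at ranks 8, 9 and 10, with Nqo1 and Slc7a11 overlapping. Gclm moved from rank 2 to rank 6.

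CD95-Ab mice differed among themselves in a pattern shared by several of the genes. Mice 1 and 2 had the highest Keap1, Srxn1 and Txnrd1 and the lowest Slc7a11, Nfe2l2 and Nfe2l2/Keap1 ratio of the group. Over the 10 mice, deviations from the group means (log2 CPM) correlated at r = 0.89 between Keap1 and Srxn1, 0.79 between Keap1 and Txnrd1, 0.79 between Srxn1 and Gsr and 0.71 between Srxn1 and Txnrd1. They correlated at r = -0.90 between Keap1 and Slc7a11 and -0.83 between Txnrd1 and Slc7a11. Taken by group, Srxn1 and Gsr correlated at r = -0.28 in saline and 0.86 in CD95-Ab mice, and the other pairs named here kept their sign in both groups. The median over all 45 pairs was 0.08. These are descriptions of 10 libraries that share their scaling. The mitochondrial share of counts was also lowest in CD95-Ab mice 1 and 2 (8.45% and 11.3%, against 18.05%, 22.1% and 14.1% in mice 3, 4 and 5), and cholangiocyte markers were lowest there (48.3 and 111 CPM, against 186, 158 and 147 CPM), as were neutrophil markers (109 and 271 CPM, against 438, 289 and 355 CPM). Their part in the pattern was not tested.

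The spread differed between genes. In saline mice the SD of log2 CPM was 0.042 for Gsr and 0.64 for Hmox1, the extremes of the 10 genes. In CD95-Ab mice it ran from 0.18 for Gsr to 0.65 for Nqo1, and for Srxn1 it was 0.53 against 0.15 in saline.

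The rest of the pathway was described through 9 lists, which hold 86 different genes, of which 84 were tested, 25 rose, 24 fell and 35 were not called. Of all genes tested 25.4% rose, 22% fell and 47.3% were called in either direction, so the counts over the lists together lie near this background, against which the count of each list below is to be read. Their median log2 fold change was -0.04, against 0.01 over all genes tested.

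Of 12 partners and regulators of NRF2, 6 rose (25.4% of all genes), 1 fell (22% of all genes) and 5 were not called (median log2 fold change 0.32). All the small MAF genes, whose proteins pair with NRF2, rose: Maff by a log2 fold change of 2.07 ± 0.36 (SE), Mafk by 1.54 ± 0.17 and Mafg by 0.59 ± 0.12. Bach1, a repressor that competes for the same elements, rose by 1.201 ± 0.156, from 45.8 ± 8.42 to 105 ± 14.8 CPM (mean ± SD, n = 5). Sqstm1, which encodes the KEAP1-binding autophagy receptor p62, rose by 0.79 ± 0.15, from 316 ± 22.4 to 545 ± 97.5 CPM. Btrc, which encodes a ubiquitin ligase adaptor that also targets NRF2, fell by 0.55 ± 0.11. Cul3, Rbx1, Bach2, Nfe2l1 and Dpp3 were not called, with log2 fold changes of -0.08, -0.04, 0.26, 0.01 and -0.13.

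Among 19 detoxification and export genes, 4 rose, 9 fell and 6 were not called (median -0.59), where 25.4% of all genes rose, near the share in the list, and 22% fell. Of the glutathione transferases that rose or fell most, Gstp2 rose by 2.19 ± 0.48 (SE) and Gsta1 by 1.78 ± 0.63, while Gsta2 fell by 1.25 ± 0.36, Gstm3 by 0.98 ± 0.35 and Gstm4 by 0.96 ± 0.18. Gstm1 fell by 0.88 ± 0.32, and Gstp1, at 0.18 ± 0.23, was not called. These families are close paralogs, so their separate values depend on how reads were shared out. Osgin1, an oxidative stress-induced growth inhibitor, rose by 1.92 ± 0.34, from 107 ± 54.2 to 405 ± 131 CPM (mean ± SD, n = 5). Of the exporters, Abcc4 rose by 0.86 ± 0.25, from a mean of 1.42 to 2.59 CPM with overlapping ranges. The more abundant exporters fell, Abcc2 by 0.59 ± 0.21 (272 to 180 CPM) and Abcc3 by 0.62 ± 0.15 (178 to 116 CPM). The number that fell was 5 without saline mouse 1 or without CD95-Ab mouse 2.

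Within 6 NADPH-supplying genes, G6pdx, the first enzyme of the pentose phosphate pathway, rose by 1.21 ± 0.27 (SE) and Pgd, in the same pathway, by 0.65 ± 0.18, while Idh1 fell by 0.56 ± 0.13. Me1, Taldo1 and Tkt were not called, at -0.79, -0.03 and -0.06. Without saline mouse 1 or 2, the number that fell was 2.

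In the thioredoxin and peroxiredoxin system, 0 of 13 genes rose, 6 fell and 7 were not called (median -0.33). Of all genes 25.4% rose and 22% fell, and the share of the list called in either direction was near the background of 47.3%. Txnip, the thioredoxin-interacting inhibitor, fell by 1.47 ± 0.30 (SE), from 149 ± 66.4 to 54.0 ± 13.9 CPM (mean ± SD, n = 5). The peroxiredoxins Prdx6 and Prdx4 fell by 0.77 ± 0.13 and 0.38 ± 0.11, the reductases Txnrd3 and Txnrd2 by 0.54 ± 0.12 and 0.43 ± 0.11, and the methionine sulfoxide reductase gene Msra by 0.39 ± 0.14. Thioredoxin itself (Txn1) and Prdx1 had log2 fold changes of 0.31 ± 0.18 and 0.12 ± 0.12 and were not called. Without saline mouse 5, 1 gene of the list rose.

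Of 13 genes of glutathione synthesis and use, 11 were tested, and Ggt1 and Gpx2 did not pass the filter. Gpx3, the secreted glutathione peroxidase, rose by 1.12 ± 0.29 (SE) and Slc3a2, the partner chain of xCT, by 0.86 ± 0.16. The genes of the transsulfuration pathway, which makes cysteine, fell: Cth by 0.87 ± 0.22 and Cbs by 0.41 ± 0.15. The groups did not overlap for Cth, whereas they overlapped for Cbs, which passed narrowly (FDR = 0.0417). Chac1, which encodes an enzyme that degrades glutathione, fell by 0.92 ± 0.26. With each mouse left out, 2 to 4 genes of the list fell. Gss, the synthase that completes glutathione, had a log2 fold change of -0.30 ± 0.12 and, with 5 others, was not called.

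Of 4 superoxide and peroxide scavengers, mitochondrial Sod2 rose by 1.38 ± 0.15 (SE), from 116 ± 13.6 to 301 ± 47.7 CPM (mean ± SD, n = 5), and extracellular Sod3 rose by 0.72 ± 0.22. Catalase (Cat) fell by 0.78 ± 0.18, from 2432 ± 318 to 1420 ± 301 CPM, and Sod1 was not called, at -0.37. Without saline mouse 4 or CD95-Ab mouse 3, 1 gene of the list rose, and without CD95-Ab mouse 4, 2 fell.

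Beside Hmox1, 6 other genes of heme breakdown and iron storage were tested, of which 0 rose, 1 fell and 5 were not called, where 25.4% of all genes rose and 22% fell, near the share of the list that fell. Slc40a1, the iron exporter ferroportin, fell by 0.90 ± 0.30 (SE), a call lost without saline mouse 1 or 2 or CD95-Ab mouse 2, 3 or 4, each of which left 0 genes falling. The ferritin genes Fth1 and Ftl1, at 0.08 ± 0.18 and -0.51 ± 0.23, and Hmox2, Blvra and Blvrb, at -0.20, 0.20 and -0.10, were not called. Fth1 and Ftl1 have many pseudogenes, so their counts are uncertain.

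Among genes of enzymes that produce superoxide or peroxide, these subunits of the phagocyte NADPH oxidase rose: Ncf4 by 2.93 ± 0.32 (SE), Ncf1 by 2.43 ± 0.24, Cybb by 2.16 ± 0.33 and Cyba by 1.85 ± 0.23. Nox4, an NADPH oxidase of non-phagocytic cells, fell by 1.15 ± 0.21, and xanthine dehydrogenase (Xdh) was not called, at 0.49. All 6 neutrophil and all 4 monocyte markers tested rose as well, and their part in the rise of these subunits was not tested.

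Slc7a11 is also a target of ATF4, the transcription factor of the integrated stress response, and 9 genes of that response were listed. Atf3 rose by 4.31 ± 0.61 (SE), from 12.5 ± 10.6 to 249 ± 85.7 CPM (mean ± SD, n = 5), Psat1 by 2.65 ± 0.30, Ddit3 by 1.55 ± 0.32, Atf4 by 1.02 ± 0.16 and Slc3a2 by the value above. Trib3 fell by 1.199 ± 0.254, as did Chac1, and Asns and Sesn2 were not called, at 0.04 and 0.07. In all 5 of the 9 genes rose, against 25.4% of all genes, and 2 fell, a share near the background of 22%.

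**Figure D5:**
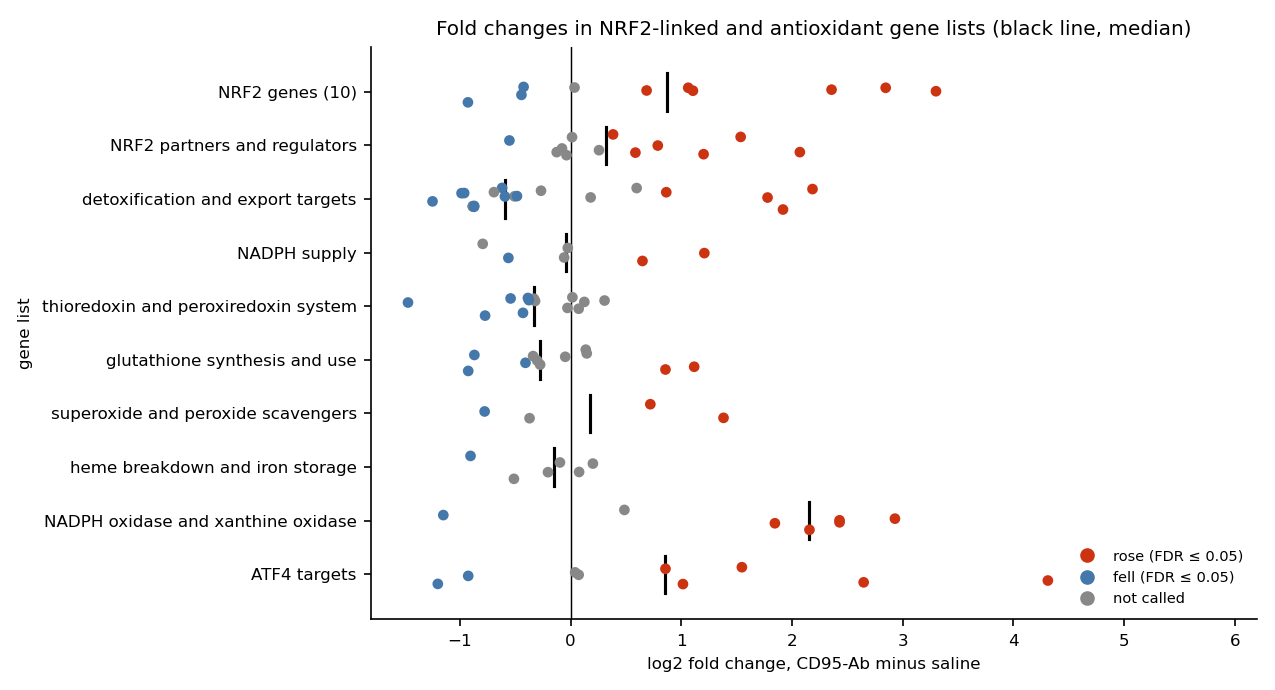
Log2 fold change (CD95-Ab minus saline, x axis) of each tested gene in 10 gene lists (y axis), red where it rose, blue where it fell and grey where it was not called, with a black line at the list median. The 10 NRF2 genes have a median of 0.87, detoxification and export genes one of -0.59, and the NADPH oxidase list one of 2.16.

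The genes whose deviations from the group means (log2 CPM, 10 mice, 12119 other genes) were most like those of a member were found for 4 members. Each r below was picked as among the highest of 12119 over 10 mice, which by itself makes it high, and none was tested. They were Apoa5, Fhad1 and Ssc4d for Nqo1 (r = 0.95, 0.94 and 0.93), Tmem184b, Dhx58 and Ccl12 for Srxn1 (r = 0.91, 0.91 and 0.89) and Lrrc45, Ccnl2 and Ssbp1 for Nfe2l2 (r = 0.97, 0.96 and 0.96). For Hmox1 they were Pdzk1ip1 (r = 0.94) and the identifiers ENSMUSG00000062381 (r = 0.96) and ENSMUSG00000082209 (r = 0.93), which had no symbol. In the comparison of the groups, 2 of these 12 genes rose, 2 fell and 8 were not called. Of all genes tested 25.4% rose and 22% fell, so these counts lie near the background.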

How the data were processed

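RNA-seq was performed on liver RNA of 5 saline and 5 CD95-Ab mice with TruSeq reagents, read as pairs. The authors assigned reads with RSEM 1.2.19 and deposited, for each mouse, expected counts per gene, not normalized and whole as deposited, so rounding changed no value. The FPKM values deposited beside them divide each count by transcript length and by the mouse's total. Reads that fit several genes are shared out by RSEM. The methods name a human annotation, but identifiers are mouse Ensembl, and the mouse release and build are not given in the sources used here. Symbols and positions came from GENCODE mouse release M21 (GRCm38), which held 37606 of 38922 identifiers and all 154 listed genes, and promoters from RefSeq (GRCm38.p6).

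Genes were kept by filterByExpr (minimum count 10), given TMM factors, and tested by edgeR 4.0.16 (R 4.3.3) with its quasi-likelihood method, in which group was the sole term and p-values were adjusted by Benjamini-Hochberg. The standard error was derived from the F statistic. Calls used an FDR of 0.05 or less, and log2 fold changes of 2 or -2 marked larger changes. Ratios used log2 with 0.1 added to each CPM and an exact permutation test over mice. Correlations used log2 CPM with a prior count of 2. DESeq2 1.42.0 and limma 3.58.1 served as alternatives, with other factors, filters, prior count and threshold, a block for replicate number, and fits without each mouse in turn. Summaries used pandas 2.3.3 and scipy 1.17.1 under Python 3.11.15.

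The members and lists were chosen with earlier results of these data known. Beside all 10 members, genes were named by rule: of each list, those called if 6 or fewer, otherwise the 6 with the largest change, a fixed set named whatever its result, and the 3 genes most like each of Nqo1, Srxn1, Hmox1 and Nfe2l2 in genes with a mean of at least 1 CPM. Abcc2, Abcc3, Abcc4, Rbx1, Bach2, Dpp3, Taldo1, Tkt, Sod1, Hmox2, Blvra, Blvrb, Xdh, Asns, Sesn2, Ggt1 and Gstp1 were named after their values were seen. A gene that meets the rule is not reported here.

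On simulated counts with 200 changed genes, the edgeR test of CD95-Ab against saline recovered 60.5% of those changed by a log2 fold change of 1 among 13195 genes, and 99% at 2 among 13239. The changed genes were drawn from those above a minimum expected count. In the data 47.3% of genes were called, a far larger share, so these rates do not give the recovery in this comparison. At the totals, 3 counts correspond to 0.0483 to 0.116 CPM before TMM scaling. Mice are separate animals per the labels, and the chi-square per degree of freedom between mice of a group was 39.4 to 515 over 20 pairs. No batch is given.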

Additional observations from a re-analysis of the deposited data

Results flagged for a closer look

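Of 128 groups of 5 mice checked, 5 held a value far from the other 4 by Dixon's test (critical value 0.71), and chance marks about 1 in 20 groups. Ftl1, a ferritin subunit, was at 5230 CPM in saline mouse 5, against 2840 to 3050 in the other saline mice. Txn1, thioredoxin, was at 225 CPM in the same mouse, against 138 to 159. Cbs was at 210 CPM in CD95-Ab mouse 1, against 295 to 333 in the other CD95-Ab mice. Chac1 was at 1.51 CPM in CD95-Ab mouse 3, against 2.99 to 3.31. G6pdx was at 7.06 CPM in CD95-Ab mouse 4, against 10.4 to 11.7. None of the 20 groups formed by the 10 NRF2 genes was marked.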

How the results depend on the processing

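The rise of Nfe2l2, Hmox1, Srxn1, Slc7a11, Txnrd1 and Gsr passed the threshold under all 10 other settings and with each mouse left out. With each mouse left out, the number of the 10 genes that fell was 1 to 3, detoxification genes that fell 5 to 11, NADPH supply genes that fell 1 to 2, thioredoxin system genes that rose 0 to 1, scavengers that rose 1 to 2 and that fell 1 to 2, and heme and iron genes that fell 0 to 1. The log2 fold change of Gclc, never called, ran from -0.0802 to 0.13 with each mouse left out, and was -0.0409 with upper quartile factors, -0.0696 with library totals and -0.0679 with limma on log2(FPKM + 0.1), an alternative chosen after seeing the data. With library totals 2 scavengers fell and the FDR of Keap1 was 0.0765. With no filter 1374 genes rose and 277 fell past a log2 fold change of 2, and with at least 10 counts in every mouse 534 and 68 did. DESeq2 gave 250 that fell past it and 2 heme and iron genes that fell. With limma on FPKM 2 scavengers and 2 heme and iron genes fell, and Slc7a11 rose by 1.32 with a ratio of means of 3.04. At an FDR of 0.01, 1897 genes fell in all, and 0 of the 10 did. At that threshold 2 detoxification genes rose and 4 fell, 1 NADPH supply gene rose, 1 glutathione gene fell, 1 scavenger rose, 0 heme and iron genes and 1 ATF4 target fell. With 1 in place of 0.1 added to each CPM, the log2 ratio of Slc7a11 to Gclc was 1.94 higher after CD95-Ab, against 2.65.

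Replicate numbers are shared between groups, but deviations of same-numbered mice correlated at -0.274 to 0.257 (mean 0.0367, against -0.00622 for other numbers), so the numbers were not taken to pair mice. With the replicate number as a block, 43.6% of genes were called against 47.3%. The log2 ratios Gclm/Gclc (-0.48), Txnrd1/Gsr (0.39), Nfe2l2/Keap1 (1.54) and Slc7a11/Gclc (2.65) then had an adjusted p of 0.0625, the smallest that the exact sign-flip test of 5 pairs gives.

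Depth limits Slc7a11 and Nqo1 most, with as few as 23 and 51 counts in a mouse.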
